A study of Mus musculus with 32 samples.

Results

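Messenger RNA of 9 transcription factors that set macrophage lineage and identity was followed in mouse brain after stroke: Spi1, Irf8, Runx1, Cebpa, Cebpb, Maf, Mef2c, Bhlhe41 and Nr1h3. They were taken by name, and all 9 were found among the 33280 genes counted. The mice were wild type (C57BL/6JCrl). 4 CTL mice (A2, A3, A4 and B1) received the vehicle, 20% hydroxypropyl-β-cyclodextrin. 4 BLZ945 mice (C2, C3, C4 and D1) received BLZ945 by oral gavage, 200 mg/kg for 7 days. BLZ945 inhibits CSF1R, the receptor on which microglia and CNS-associated macrophages depend, and the emptied brain is refilled after the drug is stopped. All 8 mice had a stroke, made by injecting thrombin into the middle cerebral artery 8 weeks after treatment, and brains were taken 1 day later. There was no unoperated brain, so the ipsilateral (stroke) hemisphere was compared with the contralateral hemisphere of the same mice, which had also gone through the operation and the stroke. Each hemisphere gave 1 library of whole tissue and 1 of sorted sdCAMs, the macrophages of the brain's borders, gated as Ly6C-Ly6G-CD11c-CD45+CD11b+CD206+ cells after removal of the choroid plexus.

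Macrophages are specified by a small set of DNA-binding proteins that act together on shared enhancers. PU.1, the product of Spi1, opens chromatin in blood progenitors under the control of RUNX1 and pairs with IRF8 and C/EBP proteins to switch on genes for receptors such as the one for CSF1. Factors such as c-MAF, MEF2C, BHLHE41 and the oxysterol receptor LXRα, encoded by Nr1h3, are then added in tissue macrophages, and in the brain MEF2C is also abundant in neurons.

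The promoters of Runx1 and Mef2c are shown because these genes and Spi1 were called together in sdCAMs below, and because PU.1 and RUNX1 bind short words that can be looked for in them. The RefSeq promoter table (GRCm38.p6, 250 bases before to 50 after each annotated start) held 12 promoters for 7 of the 9 genes and no entry for Spi1 or Maf. Each sequence runs 5′ to 3′ on the strand of its gene. Capitals mark GAGGAA, the core of PU.1 sites, or TGTGGT, the RUNX word, on either strand. The 4 windows lie at chr16:92826025-92826324 (minus strand, the Runx1 start farther upstream), chr16:92697280-92697579 (minus strand, the other Runx1 start), chr13:83503784-83504083 (plus strand, Mef2c) and chr13:83523406-83523705 (plus strand, Mef2c).
Runx1, first window: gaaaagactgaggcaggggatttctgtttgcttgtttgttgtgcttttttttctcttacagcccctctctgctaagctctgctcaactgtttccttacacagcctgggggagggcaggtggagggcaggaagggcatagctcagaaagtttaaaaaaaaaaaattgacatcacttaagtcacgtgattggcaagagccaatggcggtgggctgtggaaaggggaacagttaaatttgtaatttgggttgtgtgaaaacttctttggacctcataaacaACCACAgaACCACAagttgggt
Runx1, next window: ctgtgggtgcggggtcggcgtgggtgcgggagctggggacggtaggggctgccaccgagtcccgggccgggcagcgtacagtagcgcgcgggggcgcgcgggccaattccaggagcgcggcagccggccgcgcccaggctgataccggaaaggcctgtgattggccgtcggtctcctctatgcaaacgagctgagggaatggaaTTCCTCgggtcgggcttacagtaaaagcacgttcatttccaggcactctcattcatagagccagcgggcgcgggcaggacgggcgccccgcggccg
Mef2c, first window: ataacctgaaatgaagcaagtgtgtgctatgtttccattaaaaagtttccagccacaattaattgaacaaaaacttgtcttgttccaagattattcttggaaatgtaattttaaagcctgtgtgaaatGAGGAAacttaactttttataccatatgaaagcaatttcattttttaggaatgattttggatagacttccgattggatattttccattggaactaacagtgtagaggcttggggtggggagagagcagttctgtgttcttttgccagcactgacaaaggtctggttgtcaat
Mef2c, next window: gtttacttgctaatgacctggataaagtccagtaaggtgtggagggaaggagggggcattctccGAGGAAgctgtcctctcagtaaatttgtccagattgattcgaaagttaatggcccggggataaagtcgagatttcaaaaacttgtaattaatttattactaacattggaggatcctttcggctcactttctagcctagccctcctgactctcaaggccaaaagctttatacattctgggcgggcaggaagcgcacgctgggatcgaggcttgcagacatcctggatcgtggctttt
The remaining Mef2c window, chr13:83573357-83573656 (plus strand), held none of the words searched and is not printed. In the first Runx1 window the RUNX word occurs as a pair, read on the opposite strand. Of the 12 promoters, 4 held GAGGAA (2 of Mef2c, 1 of Runx1 and 1 of Nr1h3), against 28.3% of all 32851 promoters in the table. The RUNX word was in 1 of the 12, against 16.8% of all promoters. The C/EBP word TTGCNNAA, a spaced IRF word (GAAA, any pair of bases, GAAA) and the MEF2 word TATTTATA were in 0 of the 12, against 10.8%, 3.44% and 1.70% of all promoters. A match describes the letters in this window and is not a measured binding site.

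The sdCAM results rest on 14 libraries of 7397390 to 11081400 counts, since the ipsilateral sdCAM libraries of A3 and C2, labelled as degraded, held 54055 and 55155 counts and were left out. Whole tissue had 16 libraries of 9288720 to 12781500 counts. The labels and the column names of the count table disagree on the hemispheres of the A3 tissue libraries, and the labels were followed. Levels are given as normalised counts (CPM), that is, as if every library of a table had the same total after TMM normalization. A floor of 3 counts was 0.253 to 0.389 CPM in sdCAMs and 0.234 to 0.321 CPM in tissue, which covers counting error only, and every value of the 9 genes lay above it. Replicates of a group differed by 35.1 to 139 times the sampling variance in sdCAMs and by 4.49 to 30.1 times in tissue.

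All 12 sdCAM markers were detected in the sorted libraries, with a summed level of 1757 to 7161 CPM contralaterally and 5250 to 10864 CPM ipsilaterally. Markers of microglia (9 of 10 detected, P2ry12, Tmem119 and Sall1 among them) summed to 8139 to 21962 and 11883 to 31989 CPM, above the sdCAM markers in every group, so the sorted libraries also held RNA of microglial genes. The contralateral sdCAM libraries stood apart from the ipsilateral ones in markers of other cells. The 5 endothelial markers summed to 650 to 1765 CPM contralaterally and to 29 to 121 CPM ipsilaterally, and the 4 choroid plexus markers to 24.5 to 37173 and 0.502 to 1499 CPM. A set of 10 genes shared by macrophages (the C1q genes, Ctss, Tyrobp and others, chosen after the values were seen) summed to 14570 to 35713 CPM contralaterally and to 32154 to 45302 CPM ipsilaterally. In bulk libraries, fewer macrophages and less RNA of a gene per macrophage cannot be told apart, which bears on each sdCAM difference below.

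**Figure D1:**
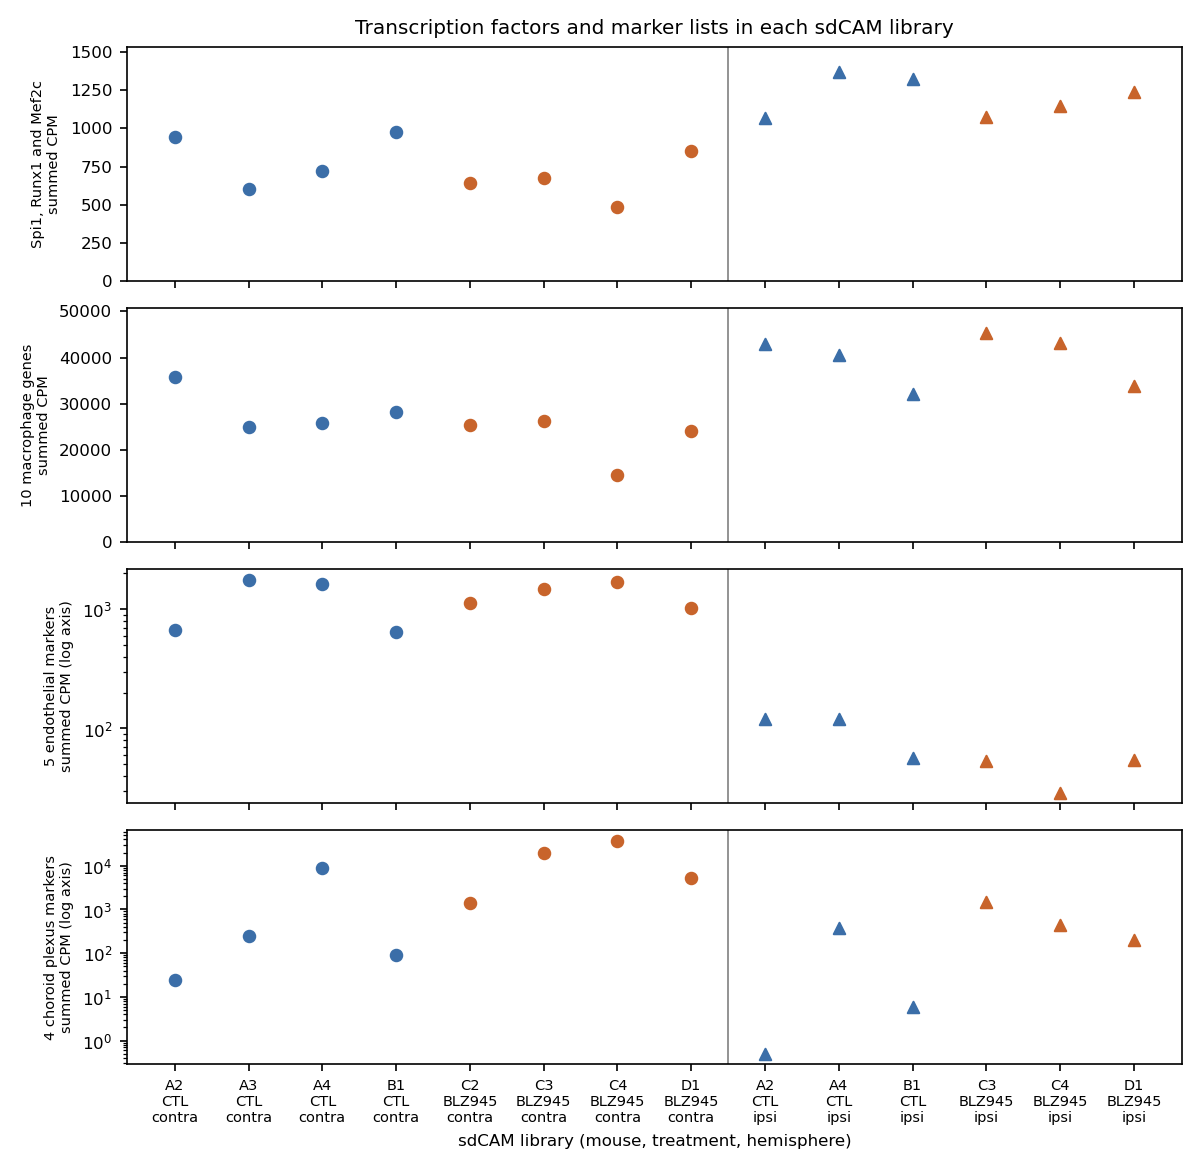
Summed normalised counts (CPM) in each of the 14 sdCAM libraries, contralateral to the left of the grey line and ipsilateral to the right, for Spi1, Runx1 and Mef2c together, the 10 macrophage genes, 5 endothelial and 4 choroid plexus markers (the endothelial and choroid plexus panels on a log axis). Blue is CTL, orange BLZ945, circles contralateral and triangles ipsilateral. The 3 factors are those of the 9 called higher ipsilaterally in these same libraries, so the separation in their panel follows from that choice. The endothelial markers were lower ipsilaterally, and their sums did not overlap between hemispheres, while the macrophage genes overlapped only through contralateral A2.

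Levels per length gave an order among the factors, computed as CPM per kb of annotated exon (mean ± SD over all libraries of a source). Each length is the union of annotated exons, and the SD over libraries does not cover how far it departs from the expressed transcript. The order depends on these lengths. By mean CPM alone the sdCAM order began with Irf8 (450 CPM), Mef2c (422), Spi1 (397) and Cebpb (357). In sdCAMs Cebpb, a factor of inflammatory gene programs, had the highest level at 237 ± 114 CPM per kb (n = 14). Spi1 followed at 147 ± 43.0, a gap within the SD of Cebpb. Irf8, the partner of PU.1, was at 63.8 ± 19.3, below Spi1 by more than either SD. Maf (31.8 ± 10.05), Cebpa (27.4 ± 9.23) and Mef2c (26.9 ± 8.75) lay below Irf8 and were indistinguishable from each other by this measure. Runx1 stood below them at 9.87 ± 4.38 CPM per kb. Bhlhe41 (4.04 ± 1.59) and Nr1h3 (2.94 ± 2.15) closed the order and did not differ beyond their spread.

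Whole tissue had another order. Mef2c was highest at 29.7 ± 6.71 CPM per kb (n = 16), above Cebpb (7.44 ± 3.17) and Cebpa (6.94 ± 1.40), which did not differ beyond their spread. Bhlhe41 (5.04 ± 0.664) came before Maf (2.68 ± 0.475) and Spi1 (2.29 ± 0.948), which were likewise within 1 SD of each other. Nr1h3 (1.20 ± 0.212), Irf8 (0.939 ± 0.222) and Runx1 (0.202 ± 0.0972) were lowest, each below the preceding gene by more than 1 SD.

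**Figure D2:**
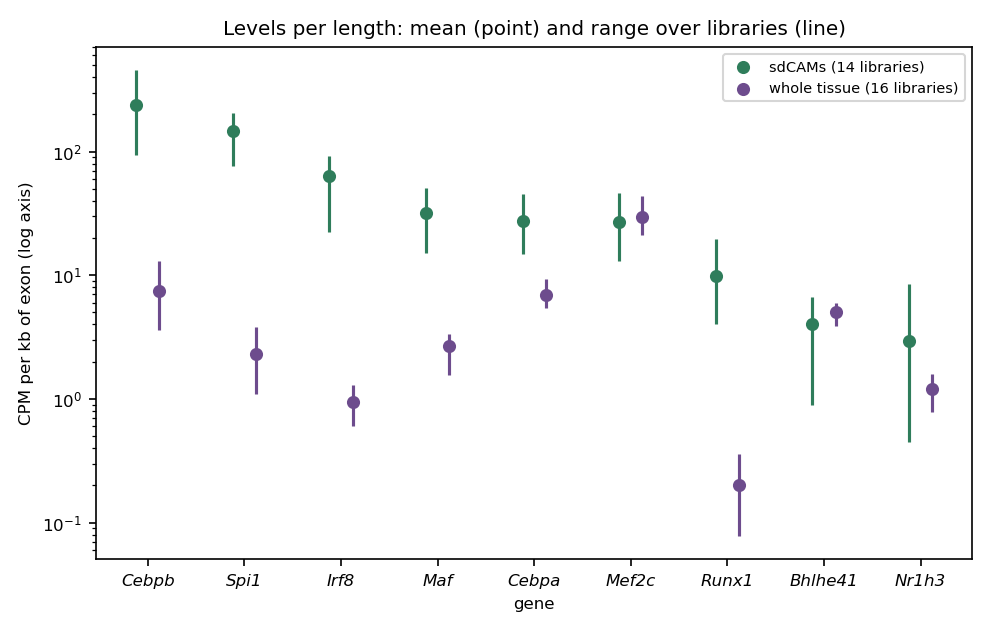
Level per length of each factor, in CPM per kb of exon on a log axis, as the mean (point) and the range over libraries (line) in 14 sdCAM libraries (green) and 16 whole-tissue libraries (purple). Spi1, Irf8, Runx1, Cebpb, Maf and Cebpa lay higher in sdCAMs with no overlap of the ranges, whereas the ranges of Mef2c, Bhlhe41 and Nr1h3 overlapped. The share of all genes without overlap was not computed. Of all genes, 72.5% were called between the sources contralaterally and 74.2% ipsilaterally. Each source was scaled separately.

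How far each factor differed between sorted cells and tissue was tested in a joint fit of both sources (edgeR's quasi-likelihood test, Benjamini-Hochberg adjusted over 19389 genes). Per the methods, RNA of sorted cells and of tissue was extracted with different kits, so the sort and the preparation cannot be told apart. On the contralateral side all 9 genes were called between sdCAMs and tissue, 7 higher and 2 lower in sdCAMs, where 72.5% of all genes were called, 33.2% higher and 39.4% lower. With such a share the call says little and the zero point of the scaling is uncertain, so small differences depend on it more than large ones. Spi1, Irf8 and Runx1, the early factors, had the largest differences of the 9. Spi1 was 71.1-fold higher in sdCAMs (log2 fold change 6.15 ± 0.18 SE), Irf8 64.1-fold (6.0 ± 0.19) and Runx1 55.5-fold (5.79 ± 0.28). Cebpb was 38.6-fold higher (5.27 ± 0.32), Maf 8.78-fold (3.13 ± 0.18) and Cebpa 4.16-fold (2.06 ± 0.21). Nr1h3 had a smaller difference of 2.68-fold (1.42 ± 0.35, adjusted p = 0.000717). Mef2c and Bhlhe41 went the other way, being 1.64-fold and 1.61-fold lower in sdCAMs than in tissue (adjusted p = 0.000146 and 0.00904), though Bhlhe41 was not called without TMM (adjusted p = 0.0612).

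On the ipsilateral side the same comparison called 6 of the 9, all higher in sdCAMs, against 74.2% of all genes (27.8% higher and 46.3% lower). They ran from Irf8 (60.9-fold) and Spi1 (54.3-fold) through Runx1 (41.4-fold), Cebpb (23.6-fold) and Maf (13.1-fold) to Cebpa (3.11-fold). For Nr1h3, Mef2c and Bhlhe41 the log2 differences were 0.37 ± 0.37, 0.14 ± 0.16 and -0.24 ± 0.24, and the adjusted p values were 0.369, 0.432 and 0.387.

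Which of the factors differed between the stroke and the other hemisphere in sdCAMs was asked first over both treatments together. Spi1, Runx1 and Mef2c rose ipsilaterally, 1.63-, 1.80- and 1.61-fold, relative to all genes in the library, and of these only Mef2c changed sign under another scaling, to -0.05 on the log2 scale when scaled to macrophage genes with the mouse as a block. These 3 of 9 genes called, all higher, compare with 16.2% of 18297 genes called, 4.98% higher and 11.2% lower. The other 6 were not called, and the median log2 fold change of all genes was -0.16. Where groups are said below to overlap or not, the share of all genes without overlap was not computed.

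Spi1, which encodes PU.1, was at 407, 253, 279 and 384 CPM in the contralateral sdCAMs of CTL mice A2, A3, A4 and B1, and at 516, 501 and 531 CPM ipsilaterally in A2, A4 and B1. In BLZ945 mice it was at 337, 259, 205 and 378 CPM contralaterally (C2, C3, C4 and D1) and at 462, 553 and 490.5 CPM ipsilaterally (C3, C4 and D1). Every ipsilateral library was above every contralateral one in both treatments. The log2 fold change over both treatments was 0.70 ± 0.16 (SE, edgeR adjusted p = 0.00722), and all 6 mice with both hemispheres had the higher value ipsilaterally, with a median within-mouse log2 ratio of 0.65.

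Mef2c, a MADS-box factor used by microglia and neurons, was at 434, 299, 374 and 444 CPM contralaterally and 446, 728 and 555 CPM ipsilaterally in CTL mice. BLZ945 mice had 259, 333, 205 and 345 CPM contralaterally and 440.0, 465 and 585 CPM ipsilaterally. Within each treatment the hemispheres did not overlap, although in CTL mice the lowest ipsilateral and the highest contralateral library were nearly equal. The log2 fold change was 0.68 ± 0.16 (edgeR adjusted p = 0.00961), with the ipsilateral value higher in 6 of 6 mice.

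Runx1, a regulator of blood formation that acts upstream of Spi1, was at 102, 50.5, 70.1 and 151 CPM contralaterally and 108, 141 and 236 CPM ipsilaterally in CTL mice. In BLZ945 mice the values were 48.8, 81.0, 76.8 and 126 CPM contralaterally and 172, 132 and 166 CPM ipsilaterally. The hemispheres overlapped in CTL mice and did not in BLZ945 mice. Its log2 fold change was the largest of the called genes at 0.85 ± 0.26, with the largest error (edgeR adjusted p = 0.0373), and 6 of 6 mice were higher ipsilaterally. The call was lost, with an adjusted p above 0.05, when any 1 of A3, A4, C2, C3 or C4 was left out, and without A4 only Spi1 was called.

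These differences are relative to the whole library, and they moved with the macrophage genes of the plot of marker sums. Scaled to the 10 macrophage genes, Spi1, Runx1 and Mef2c differed by log2 values of 0.08, 0.23 and 0.07, with 0 of 9 genes called, while the median of all genes moved from -0.16 to -0.82. With this scaling and the mouse as a replicate block, Spi1, Runx1 and Mef2c were at 0.06, 0.01 and -0.05. The genes called over the whole table were 912 higher and 2054 lower, against 394 and 2384 without TMM and 23 and 4842 on the macrophage scale. Without the contralateral libraries of A4, C3 and C4, which had the most choroid plexus counts, 1 of the 9 was called (Mef2c), and Spi1 had an edgeR adjusted p of 0.0506. What part the admixed cells have in the differences was not tested beyond these values.

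**Figure D3:**
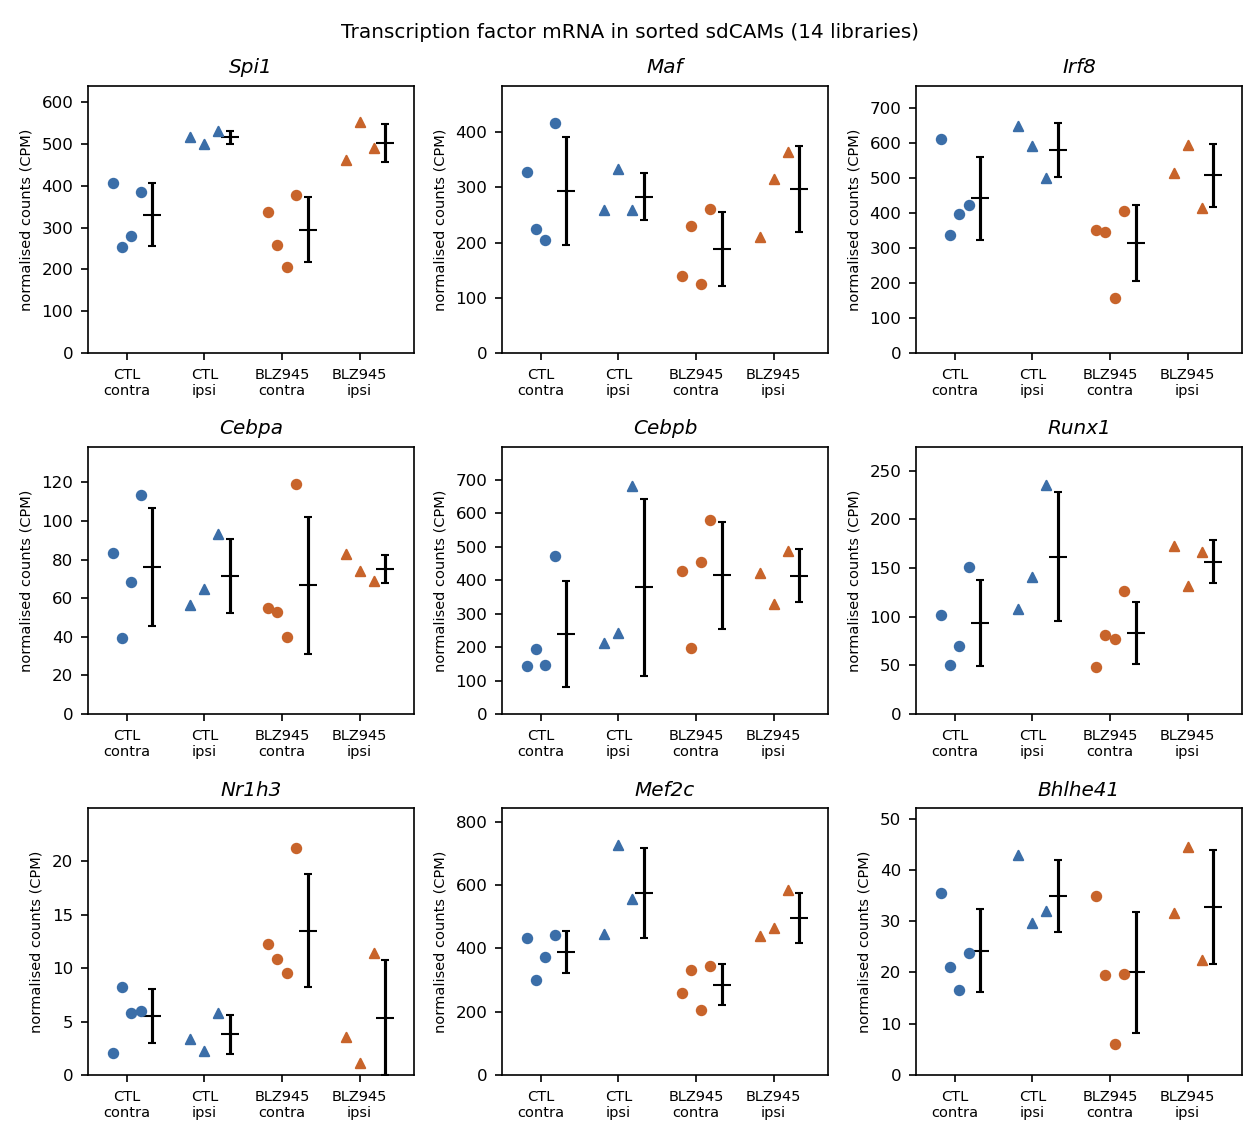
Normalised counts (CPM, linear axes from 0) of the 9 factors in 14 sdCAM libraries by treatment and hemisphere. Each circle (contralateral) or triangle (ipsilateral) is 1 library, blue for CTL and orange for BLZ945, and the black marks give the mean ± SD of 3 or 4 libraries. Ipsilateral Spi1 lay above all contralateral values, a difference that shrank to 0.08 (log2) when scaled to macrophage genes, and Nr1h3 was highest in the contralateral BLZ945 group.

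The other factors were not called in sdCAMs. Irf8 had a log2 fold change of 0.54 ± 0.20 (edgeR adjusted p = 0.0746) and was higher ipsilaterally in 6 of 6 mice. In BLZ945 mice it was at 353, 345, 158 and 407 CPM contralaterally and at 515, 596 and 416 CPM ipsilaterally, without overlap, whereas contralateral A2 at 613 CPM exceeded 2 of the 3 ipsilateral CTL libraries. Bhlhe41, a basic helix-loop-helix repressor, ranged from 5.95 to 35.5 CPM contralaterally and from 22.4 to 44.6 CPM ipsilaterally (0.62 ± 0.33, edgeR adjusted p = 0.212). It too was higher in 6 of 6 mice, by 0.19 to 2.90 on the log2 scale.

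Neither C/EBP gene separated the hemispheres. Cebpb spread more between mice than between hemispheres, from 142 to 580.1 CPM contralaterally and from 211 to 683 CPM ipsilaterally (0.33 ± 0.33, edgeR adjusted p = 0.561). Mouse B1 held the highest CTL value on both sides, 473 and 683 CPM. Cebpa, which commits progenitors to the myeloid lineage, ranged from 39.5 to 119 CPM and from 56.6 to 93.1 CPM (0.04 ± 0.26, edgeR adjusted p = 0.982). Maf was higher ipsilaterally in 3 of 6 mice (0.30 ± 0.21, edgeR adjusted p = 0.368), with log2 fold changes of -0.05 ± 0.30 in CTL and 0.65 ± 0.30 in BLZ945 mice. Nr1h3 was the only one of the 9 with a negative estimate, -0.93 ± 0.56 (edgeR adjusted p = 0.273), lower ipsilaterally in 5 of 6 mice and at most 21.2 CPM in any library. On the scale of the 10 macrophage genes the estimates of Irf8, Maf, Cebpb and Cebpa changed sign, to -0.08, -0.31, -0.30 and -0.56, none of them called.

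Within a single treatment 0 of the 9 were called in sdCAMs by edgeR. In CTL mice edgeR called 2.79% of all genes (0.426% higher, 2.36% lower), and DESeq2 called 0 of the 9. Spi1 was at 0.64 ± 0.22 there (edgeR adjusted p = 0.138). In BLZ945 mice edgeR called 5.61% of all genes (1.2% higher, 4.41% lower), and DESeq2 called 2 of the 9, Spi1 and Mef2c. The split of higher and lower genes was 78 and 432 in CTL and 220 and 807 in BLZ945 mice, against 23 and 514 and 85 and 904 without TMM, and 0 and 532 and 1 and 3102 on the macrophage scale. For Spi1 and Mef2c in BLZ945 mice the edgeR estimates were 0.77 ± 0.22 and 0.80 ± 0.23, with adjusted p values of 0.0556 and 0.0523.

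More of the factors were called in whole tissue. Over both treatments Spi1, Cebpb, Runx1 and Irf8 rose ipsilaterally, 2.04-, 1.97-, 2.32- and 1.46-fold. These 4 of 9, all higher, compare with 3.05% of 18968 genes called, 2.53% higher and 0.517% lower. The log2 estimates of these 4 kept their sign under TMM, DESeq2's size factors and total counts, where the median of all genes lay between -0.01 and 0.03.

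Spi1 was at 4.52, 5.10, 3.92 and 4.35 CPM in contralateral tissue of CTL mice and at 4.61, 8.32, 7.87 and 9.23 CPM ipsilaterally (A2, A3, A4 and B1). In BLZ945 mice it was at 3.75, 2.93, 4.28 and 3.56 CPM contralaterally and at 9.35, 9.73, 7.04 and 10.2 CPM ipsilaterally (C2, C3, C4 and D1). The groups were apart in BLZ945 mice, and in CTL mice they overlapped through A2, whose hemispheres were nearly equal. The log2 fold change was 1.03 ± 0.15 (edgeR adjusted p = 0.000453), with 8 of 8 mice higher ipsilaterally.

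Runx1, per length the lowest of the 9 in tissue, was at 1.19, 1.61, 1.24 and 1.48 CPM contralaterally and 1.87, 3.77, 3.54 and 3.38 CPM ipsilaterally in CTL mice. BLZ945 mice had 1.61, 0.941, 1.21 and 2.34 CPM contralaterally and 4.34, 2.91, 3.26 and 4.10 CPM ipsilaterally. The hemispheres did not overlap in either treatment. Its log2 fold change of 1.21 ± 0.21 was the largest of the 9 in tissue (edgeR adjusted p = 0.00226), and 8 of 8 mice were higher, by 0.66 to 1.63 on the log2 scale.

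Cebpb was at 8.88, 6.88, 7.74 and 6.75 CPM contralaterally and 12.1, 14.4, 8.93 and 18.6 CPM ipsilaterally in CTL mice. In BLZ945 mice the values were 7.82, 5.44, 9.49 and 7.02 CPM and 19.4, 14.2, 11.8 and 19.7 CPM. Again neither treatment had an overlap, though CTL A4 ipsilaterally was close to contralateral A2. The log2 fold change was 0.98 ± 0.16 (edgeR adjusted p = 0.00144), with 8 of 8 mice higher.

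Irf8 was at 6.34, 4.42, 5.78 and 4.99 CPM contralaterally and 8.35, 7.97, 6.10 and 7.25 CPM ipsilaterally in CTL mice. In BLZ945 mice it was at 6.32, 5.23, 4.28 and 5.62 CPM contralaterally and 9.16, 7.12, 9.04 and 7.99 CPM ipsilaterally. Only in CTL mice did the hemispheres overlap. The log2 fold change was 0.55 ± 0.12 (edgeR adjusted p = 0.0154), in the same direction in 8 of 8 mice.

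**Figure D4:**
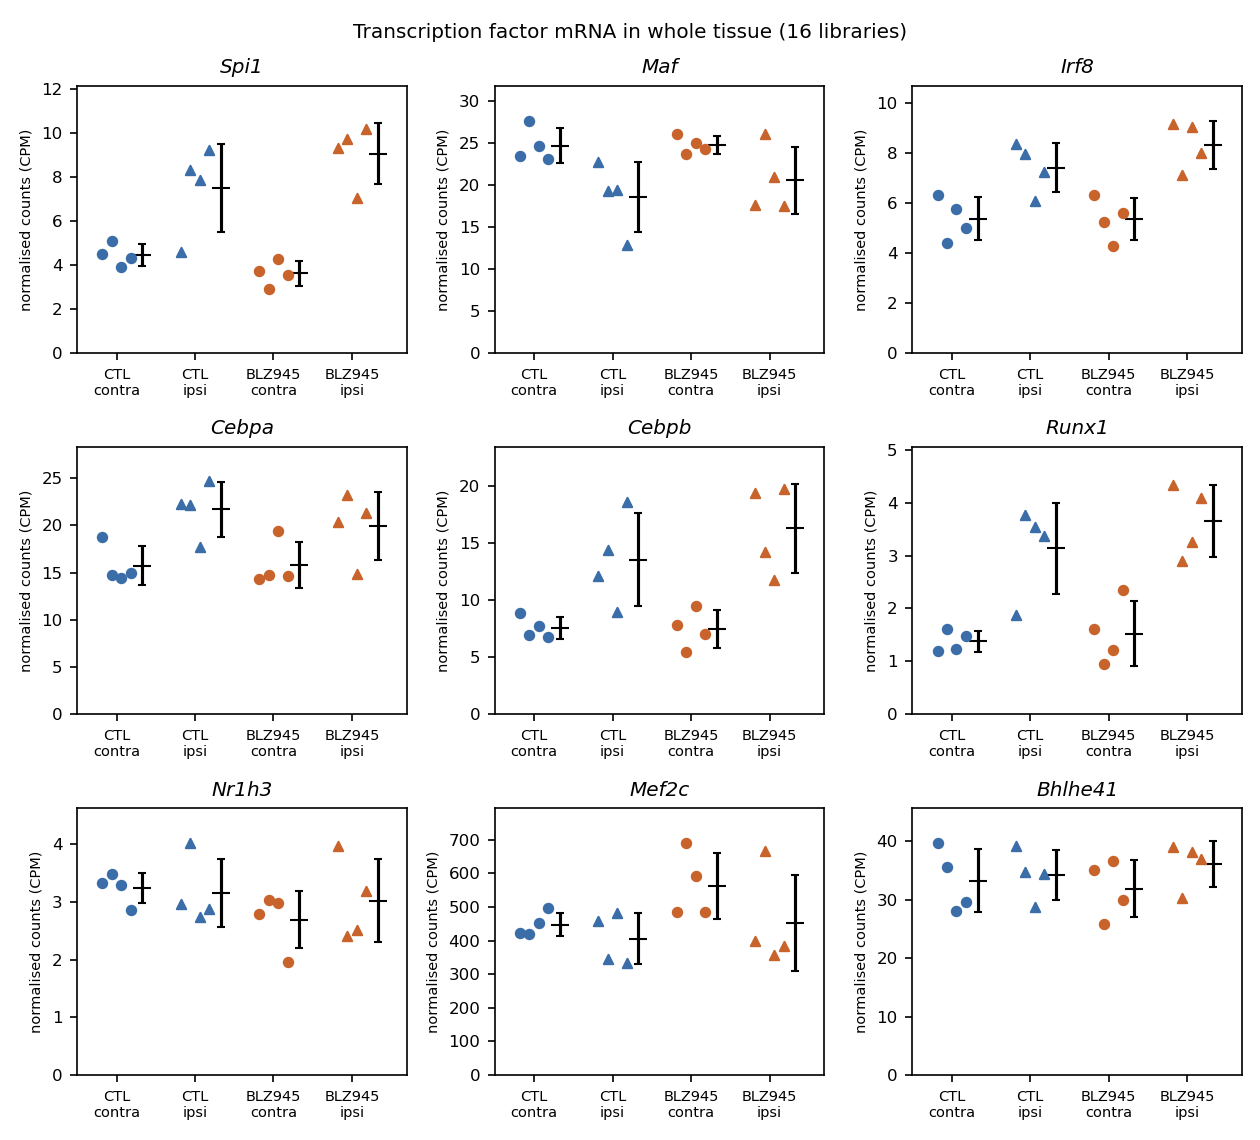
Normalised counts (CPM, linear axes from 0) of the 9 factors in 16 whole-tissue libraries by treatment and hemisphere, drawn as for the sdCAMs, with the mean ± SD of 4 libraries. Spi1, Irf8, Cebpb and Runx1 had higher ipsilateral means in both treatments, and Maf and Mef2c had lower ones.

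Of the remaining 5, Cebpa was higher ipsilaterally in 7 of 8 mice (0.40 ± 0.11, edgeR adjusted p = 0.0505). Maf was lower in 7 of 8 mice (-0.34 ± 0.11, adjusted p = 0.109), and its CTL hemispheres did not overlap, with 23 to 27.6 CPM contralaterally and 12.9 to 22.7 CPM ipsilaterally. Mef2c was lower in 6 of 8 mice (-0.23 ± 0.13, adjusted p = 0.444), from a contralateral range of 418 to 689.9 CPM to an ipsilateral one of 333 to 665 CPM. With the mouse as a replicate block these 3 were called as well, at adjusted p values of 0.0218 (Cebpa), 0.0211 (Maf) and 0.0427 (Mef2c), which makes 7 of 9. For each tissue comparison of hemispheres the block also called more of all genes than the main fit, as counted at the end. The shares of all genes given here for the main fit do not apply to it. Cebpa was also called by DESeq2 (0.0123), with its size factors in edgeR (0.0482), without TMM (0.0233), with filterByExpr (0.0415) and without C4 (0.00519), and Maf without C3 (0.0478). Bhlhe41 (0.11 ± 0.09) and Nr1h3 (0.07 ± 0.16) had adjusted p values of 0.691 and 0.924.

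By treatment, BLZ945 mice had 3 of the 9 called in tissue, all higher, against 1.36% of all genes (1.26% higher, 0.1% lower). These were Spi1 (1.32 ± 0.21, edgeR adjusted p = 0.00286), Cebpb (1.13 ± 0.23, 0.0155) and Runx1 (1.25 ± 0.29, 0.043). Irf8 was called as well under 2 of 10 other settings, the replicate block among them (edgeR adjusted p = 0.0481). Without C2, C3 or D1, 1 of the 9 was called there, Spi1. In CTL mice edgeR called 0 of the 9, against 0.49% of all genes (0.485% higher, 0.00527% lower). DESeq2 called 2 in CTL mice, Cebpb and Runx1, and the replicate block called Runx1 (1.15, edgeR adjusted p = 0.0407). With the hemispheres of A3 exchanged, as in the column names, 0 of the 9 were called over both treatments and in each treatment, Spi1 keeping a log2 fold change of 0.83 (adjusted p = 0.0864) over both. The counts of mice and the CTL ranges given for tissue follow the labels. With the exchange A3 would be lower ipsilaterally for Spi1, Runx1, Cebpb and Irf8. The hemispheres of CTL mice would then overlap for Runx1, Cebpb and Maf.

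Markers of other cells in tissue are given beside these values, and their part was not tested. The 9 microglia markers summed to 412 to 1020 CPM contralaterally and 423 to 951 CPM ipsilaterally, with 0 called higher and 2 lower. The 12 sdCAM markers summed to 54.2 to 85.1 and 85.2 to 142 CPM, with 2 called higher. Neutrophil markers were low, at 0.0850 to 1.5 CPM contralaterally and 0.547 to 4.45 CPM ipsilaterally, with 2 of 5 tested called higher, and 2 of 8 monocyte markers were called higher. Neuron markers summed to 9791 to 14203 and 8591 to 12174 CPM.

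Whether the factors responded differently in sdCAMs and in tissue was tested as a difference of the stroke responses in the joint fit, a comparison added after the values had been seen. Mef2c was the 1 gene called of 9, against 20.6% of all genes (3.18% higher in sdCAMs, 17.4% lower). Its response was 0.85 ± 0.22 higher on the log2 scale in sdCAMs than in tissue (edgeR adjusted p = 0.00595), where the 2 estimates were 0.68 and -0.23. Maf pointed the same way (0.58 ± 0.25, adjusted p = 0.105) and was called without C3 (0.81, adjusted p = 0.0354). Nr1h3 had the most negative difference (-1.05 ± 0.51, adjusted p = 0.155), followed by Cebpb (-0.71 ± 0.40, adjusted p = 0.233). Runx1 (-0.42), Cebpa (-0.42) and Spi1 (-0.39) also had larger estimates in tissue, with adjusted p values of 0.462, 0.375 and 0.22. Bhlhe41 (0.45) and Irf8 (-0.07) had adjusted p values of 0.402 and 0.981. Mef2c was called in every alternative but one, the scaling of both sources to the 10 macrophage genes. On that scale its difference was 0.55 ± 0.25 (edgeR adjusted p = 0.119), and Spi1 was the 1 gene called, with a smaller response in sdCAMs (-0.68 ± 0.23, edgeR adjusted p = 0.0335). Of all genes 616 were higher and 3370 lower by TMM, against 74 and 4431 on the macrophage scale, whose genes summed to 385 to 471 CPM contralaterally and 449 to 585 CPM ipsilaterally in tissue.

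**Figure D5:**
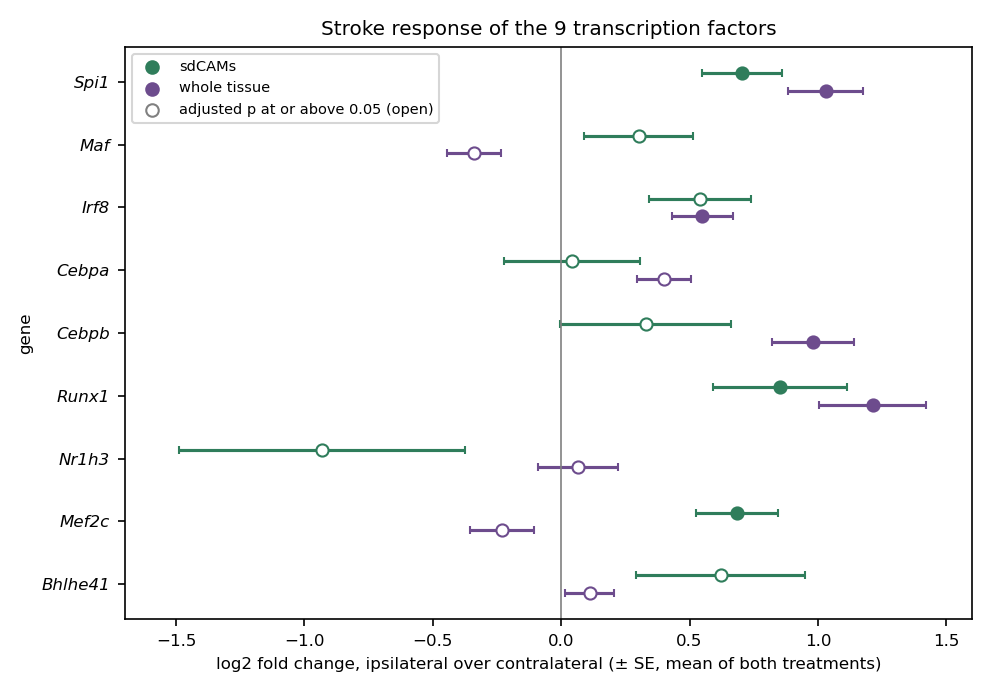
Log2 fold change of each factor, ipsilateral over contralateral, as the mean of both treatments ± SE in sdCAMs (green) and whole tissue (purple), with filled points for an edgeR adjusted p under 0.05. Spi1 and Runx1 were called in both sources, Mef2c in sdCAMs alone, and Irf8 and Cebpb in tissue alone. A call in a single source is not a difference between sources, for which only Mef2c was called with TMM. Irf8 had log2 estimates of 0.54 in sdCAMs and 0.55 in tissue. With the hemispheres of A3 exchanged and no replicate block, none was called in tissue. Scaled to 10 macrophage genes, the sdCAM values of Spi1, Runx1 and Mef2c fell to between 0.07 and 0.23, none called, and those of Irf8, Maf, Cebpb and Cebpa changed sign.

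Whether earlier depletion and repopulation left a mark on the factors was asked within each hemisphere and as an interaction with stroke. None of the 9 was called in sdCAMs or tissue by edgeR or by DESeq2, and edgeR called 0 of all genes (0%) in each of these 6 comparisons. At an unadjusted p under 0.05 edgeR had 1133, 1034 and 912 of 18297 sdCAM genes for contralateral, ipsilateral and interaction, and 616, 858 and 386 of 18968 tissue genes, while DESeq2 called 39, 123 and 48 genes in sdCAMs and 0, 1 and 0 in tissue. Of the 9 only Maf in contralateral sdCAMs was among the former.

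Maf, a factor that restrains self-renewal of macrophages, was at 328, 225, 204 and 417 CPM in contralateral sdCAMs of CTL mice and at 139.6, 229.8, 124 and 262 CPM in those of BLZ945 mice. The groups overlapped (log2 fold change -0.64 ± 0.28, unadjusted p = 0.0386, edgeR adjusted p = 0.759). Nr1h3, by contrast, was at 2.07, 8.22, 5.82 and 6.01 CPM in CTL and at 12.3, 10.9, 9.59 and 21.2 CPM in BLZ945 mice, without overlap. The share of all genes without overlap was not computed, and 0 of 18297 genes were called in this comparison. The Nr1h3 difference of 1.28 ± 0.72 did not pass the test (edgeR adjusted p = 0.765), and ipsilaterally the groups overlapped, at 2.2 to 5.79 and 1.13 to 11.4 CPM. Cebpb was at 142 to 473 CPM in CTL and 197 to 580.1 CPM in BLZ945 contralateral sdCAMs (0.79 ± 0.44, adjusted p = 0.762). Irf8 (-0.49 ± 0.26) and Mef2c (-0.44 ± 0.21) had an adjusted p of 0.759 each, and Spi1, Runx1, Cebpa and Bhlhe41 lay between -0.28 and -0.17.

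Markers of other cells also differed between these contralateral sdCAM groups, and their part was not tested. The choroid plexus markers summed to 24.5 to 8928 CPM (median 166) in CTL and to 1397 to 37173 CPM (median 12622) in BLZ945 libraries. Neutrophil markers summed to 124 to 552 CPM and 87.4 to 2919 CPM (medians 274 and 2196), and monocyte markers to 409.7 to 1057 CPM and 901 to 1499.6 CPM (medians 718 and 1404). Microglia markers were lower in BLZ945 libraries, at 8139 to 15142 CPM against 15777 to 21962 CPM. In ipsilateral sdCAMs no estimate of the 9 was beyond 0.50 in size, and in tissue the adjusted p values were at least 0.958. The interaction estimates in sdCAMs ran from -0.79 (Nr1h3) to 0.70 (Maf). For the interaction in tissue Spi1 had the largest estimate of the 4 genes called over both treatments, a response 0.58 ± 0.29 higher in BLZ945 mice (edgeR adjusted p = 1), and the other 8 lay between -0.17 (Mef2c) and 0.29 (Cebpb).

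Genes around the factors were taken from 3 lists: other lineage transcription factors, receptors known as targets of PU.1 and C/EBP proteins, and targets of LXRα. In sdCAMs over both treatments, 7 of 12 receptor genes were called higher ipsilaterally and 0 lower, with a list median of 0.80 against -0.16 over all genes and 4.98% of all genes called higher. Among them were Csf1r, the receptor blocked by BLZ945 (0.89, edgeR adjusted p = 0.00927), Cx3cr1 (0.90), Itgam (0.84) and Fcgr3 (0.66). On the macrophage scale the list median was 0.22, with 8 of 12 positive and 0 called, where 23 of 18297 genes were called higher and 4842 lower. Tyrobp is both in this list and among the genes of that scale, so the list and the scale are not independent. Of 47 other lineage factors 3 were called higher and 2 lower (median 0.31), a share below the 16.2% of all genes, and on the macrophage scale the median was -0.26, with 0 higher and 11 lower. Mef2a, a paralog of Mef2c (0.70), and Irf5 (0.69) rose, whereas on the macrophage scale they were at 0.08 and 0.05 and not called. Id3 (-3.48) and Klf2 (-1.14) fell on both scales. Neither scale removes RNA of admixed cells, whose endothelial markers were higher contralaterally, and their part in these values was not tested. Of 13 LXR targets 2 rose and 4 fell (median -0.13; on the macrophage scale 0 rose and 6 fell, median -0.78), with Mylip (0.77) among the former and Scd2 (-1.38), Pltp (-1.21) and Apoc1 (-2.53) among the latter. Within CTL mice the numbers called higher and lower were 0 and 0 (receptors), 0 and 1 (lineage factors) and 0 and 2 (LXR targets), and within BLZ945 mice 4 and 0, 0 and 2, and 1 and 1. The shares of all genes called higher and lower were 0.426% and 2.36% in CTL and 1.2% and 4.41% in BLZ945 mice.

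In tissue over both treatments 6 of 12 receptor genes were called higher and 0 lower (median 0.52, against -0.01 over all genes, of which 2.53% were called higher), led by Cd14, the lipopolysaccharide co-receptor (2.90, edgeR adjusted p = 3.27e-05). Csf2rb (1.68), Ptprc (0.98) and Tyrobp (0.47) followed. Of 45 lineage factors tested 6 were called higher and 0 lower (median 0.19). Among them were Cebpd (1.64), which the list held along with the C/EBP genes Cebpe and Cebpg, and the interferon-response factors Irf7 (1.14) and Irf9 (0.74). Of 13 LXR targets 0 were called (median -0.04), the lowest adjusted p being 0.407 for Apoe. With the hemispheres of A3 exchanged and no replicate block, 0 genes of the 3 lists were called in tissue over both treatments. Both the members and these lists were picked with earlier results of these data known, so the counts are a description.

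The likeness of the factors to each other was described across the 14 sdCAM libraries. Of the 36 pairs, 26 had a positive Pearson r of log2 CPM, highest for Irf8 with Bhlhe41 (0.90), Spi1 with Irf8 (0.85) and Spi1 with Mef2c (0.83). Each of the 10 negative pairs held Nr1h3 or Cebpb. Nr1h3 was positive with Cebpb alone and lowest with Irf8 (-0.65), and Cebpb was at -0.22 with Irf8 and 0.02 with Mef2c. Among the genes with a mean of at least 10 CPM, the one closest to Spi1 was Ctsb, a lysosomal protease (r = 0.98), and that closest to Runx1 was Mrc1, the gene of the sorting marker CD206 (0.91). Closest to Cebpb was Clec7a (0.94), to Maf Apoe (0.94), to Irf8 Abhd12 (0.95), to Bhlhe41 Apbb1ip (0.94), to Cebpa Pml (0.87) and to Nr1h3 Sertad1 (0.89). These correlations describe 14 libraries that share mice, hemispheres and the admixed cells above, and no test was made of them.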

How the data were processed

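Whole tissue and sorted sdCAMs of both hemispheres of 8 mice were profiled by bulk RNA-seq. Per the methods and the submitters' processing notes, libraries were made with the SMARTer and Nextera XT kits and read as single reads, with bcl2fastq 2.20, STAR 2.7.11a and featureCounts 2.0.8 for read extraction, alignment and counting, and DESeq2 1.46.0 for testing. The methods name more than one genome build, so genes are given by symbol. The authors deposited raw counts of 33280 genes, 1 table for tissue and 1 for sdCAMs, with no normalization. SMARTer libraries do not keep strand, so reads of overlapping antisense genes cannot be told apart.

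From these counts, a gene was kept if its libraries summed to 7 counts or more (14 sdCAM libraries), 8 (16 tissue libraries) or 15 (both sources). edgeR 4.0.16 in R 4.3.3 fitted a mean for each group of treatment, hemisphere and source after TMM scaling, and its quasi-likelihood test was adjusted by Benjamini-Hochberg over all genes tested, two-sided, with calls at an adjusted p-value under 0.05 and no fold threshold. All libraries were labelled as 1 batch. Both hemispheres come from the same animal, so a replicate block for the mouse was an alternative. Deviations from the group means correlated at 0.045 to 0.19 between the hemispheres of each of 6 mice in sdCAMs and at 0.21 to 0.65 in 8 mice in tissue. Exon lengths for CPM per kb came from the union of exons in a GENCODE mouse annotation. Other alternatives were DESeq2 1.42.0, its size factors, no scaling factors, other filters, a fold threshold of 0.59 (log2), leaving out each mouse, all 16 sdCAM libraries, 1 treatment at a time and the exchanged hemispheres of A3. Scaling to 10 macrophage genes, removal of 3 contralateral libraries, and the combined settings were added after seeing the data. The tests were tried on simulated data. All 9 genes were tested in every comparison and are given by name or in a range, along with the 4 of each list with the smallest p and the closest gene to each of the 9, of which 1 is not reported here. Members and lists were chosen with earlier results of these data known.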

Additional observations from a re-analysis of the deposited data

Results flagged for a closer look

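In 4 of the 54 groups of 4 libraries, 1 library stood further from the others than Dixon's limit allows, where chance would give about 1 in 20 groups. In contralateral whole tissue Cebpa was at 19.4 CPM in BLZ945 mouse C4, against 14.4 to 14.7 CPM in the other mice of its group. Cebpa was likewise at 18.8 CPM in contralateral tissue of CTL mouse A2, against 14.4 to 15 CPM. Mef2c was at 665 CPM in ipsilateral tissue of BLZ945 mouse C3, against 358 to 399 CPM. In sdCAMs Cebpb was at 473 CPM in contralateral CTL mouse B1, against 142 to 194 CPM in A2, A3 and A4. What sets these libraries apart was not tested.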

How the results depend on the processing

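Of 261 counts of called genes among the 9 under alternative settings, 241 stayed within 1.5 times their reported value. The comparisons of treatments and the interactions had 0 called in the main fit and under every setting. Many of these counts could therefore not fall, and the share does not measure how firm the called genes are. In sdCAMs over both treatments (3 called) there were 0 with all 16 libraries, 1 without the contralateral libraries of A4, C3 and C4, 0 scaled to macrophage genes and 0 with that scaling and the replicate block, where Mef2c reversed to -0.049. Leaving out 1 mouse gave 1 to 3. In BLZ945 sdCAMs (0 called) there were 2 with DESeq2, 1 with no filter, 2 with filterByExpr and 0 to 2 leaving out 1 mouse. In tissue over both treatments (4 called) there were 7 with the replicate block, 0 with the hemispheres of A3 exchanged, 1 with that and the block, and 3 to 5 leaving out 1 mouse. BLZ945 tissue (3 called) had 0 with A3 exchanged, 1 with that and the block, and 1 to 3 leaving out 1 mouse. CTL tissue (0 called) had 2 with DESeq2 and 1 with the replicate block. The difference of responses between sdCAMs and tissue (1 called) had 1 to 2 leaving out 1 mouse, and on the macrophage scale 1, Spi1 in place of Mef2c. The block changed no call beyond those given here and in the report. The cause of these changes was not tested, apart from the smaller samples when mice were left out.

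Counts of all genes moved by over 1.5 times as well. DESeq2 called 1810 against 510 genes in CTL sdCAMs, 2476 against 1027 in BLZ945 sdCAMs, 162 against 93 in CTL tissue, 470 against 258 in BLZ945 tissue and 875 against 578 in tissue over both. The replicate block called 293 in CTL sdCAMs, 1931 against 2966 in sdCAMs over both, and 250, 785 and 1344 in the tissue of CTL mice, of BLZ945 mice and over both. With A3 exchanged the tissue counts were 0, 6 and 1, and with the block besides 0 in CTL mice and 253 over both. All 16 sdCAM libraries gave 205, 428 and 1186, removal of 3 contralateral ones 115, 127 and 1182, and the macrophage scaling 3103 in BLZ945 mice (2317 with the block) and 4865 over both. A fold threshold gave 381 in tissue over both, and fitting BLZ945 tissue alone gave 170. Leaving out 1 mouse gave 139 to 612, 270 to 1220 and 1855 to 2612 in sdCAMs and 24 to 96, 81 to 261 and 319 to 564 in tissue.

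Depth bore on Runx1 in tissue (0.941 CPM in its lowest library) and on Nr1h3 in sdCAMs (1.13 CPM), each at 9 counts there, and the spread between sdCAM libraries was many times the counting error.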
